A study of Junco hyemalis with 13 samples.

Results

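In the hypothalamus of male dark-eyed juncos, 9 genes tied to innate immune cells were followed, not all of them particular to such cells. The 9 are the macrophage mannose receptor 1-like gene (MMR1, LOC100231534, element XP_012426885.1), CSF1R, CSF1, IL34, CD74, TLR4, CARD9, IRAK2 and P2RY14. They were found by their symbols, which the study paired with the zebra finch protein identifiers of its count tables. They are 9 of the 15363 elements counted, and all 9 passed the filter of at least 5 counts in at least 6 libraries, as did 9938 elements in all. MMR1 was chosen by its difference between the populations in these same birds. The other 8 genes were listed beside it when their own differences were already known. The differences between the populations given here are therefore a description and support nothing. What the choice did not use is how the genes varied together within a population, and that was tested as far as so few birds allow.

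Each library came from the punched hypothalamus of 1 free-living male caught in March on the shared wintering ground at Mountain Lake, Virginia. The 6 migrants (J. h. hyemalis) leave for northern breeding grounds, and the 7 residents (J. h. carolinensis) stay and breed there. Both populations lived under the same day length and weather, and no treatment was given. The populations were told apart by bill colour, plumage and wing length, and their age was not given in the sources used here. The libraries held between 4308064 and 5826833 counted read pairs. Levels are given as CPM, read pairs scaled to 1 common library size with TMM factors. The identifiers carry no gene length here, so levels are compared between birds and not between genes.

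Microglia are the resident macrophages of brain tissue, and other macrophages line its vessels and meninges. In mammals and birds these cells depend on the receptor CSF1R, which binds either of 2 ligands, CSF1 or IL34. Mannose receptors are C-type lectins that take up glycoproteins with exposed sugars, and in the mammalian brain the mannose receptor MRC1 marks macrophages of vessels and meninges more than microglia. CSF1R, the defining gene of these cells, was counted in every bird. Other defining genes of microglia were not matched to an element by name, so the presence of microglia rests on CSF1R alone. CSF1 and IL34 are made by other cells, and IRAK2 and CARD9 are adaptors that other cells also use. The hypothalamic peptide gene NPVF, read as a check of the tissue, was at a mean of 357.3 CPM in migrants and 507.1 CPM in residents.

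MMR1, the lectin of the group, was lower in residents in every bird. In migrants the lowest value was 13.5 CPM, the median 15.1 CPM and the highest 16.1 CPM. In residents the lowest was 5.37 CPM, the median 8.03 CPM and the highest 10.6 CPM. The lowest migrant thus lay above the highest resident, and the populations did not overlap. The log2 fold change of residents over migrants was -0.87 (standard error 0.18, 95% interval -1.24 to -0.50). Among all 9938 elements the populations did not overlap for 0.131%, and MMR1 was 1 of 9 here, which says nothing further, since this contrast had chosen it. The counts behind these levels were few, from 62 to 86 read pairs per migrant and from 30 to 57 per resident. Residents spread over a wider range, with a coefficient of variation of 23.1% where counting alone would give 15.7%. In migrants the coefficient of variation was 6.01%, below the 11.8% that counting alone would give, so no variation among migrants in the level of MMR1 was detectable at this depth.

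**Figure D1:**
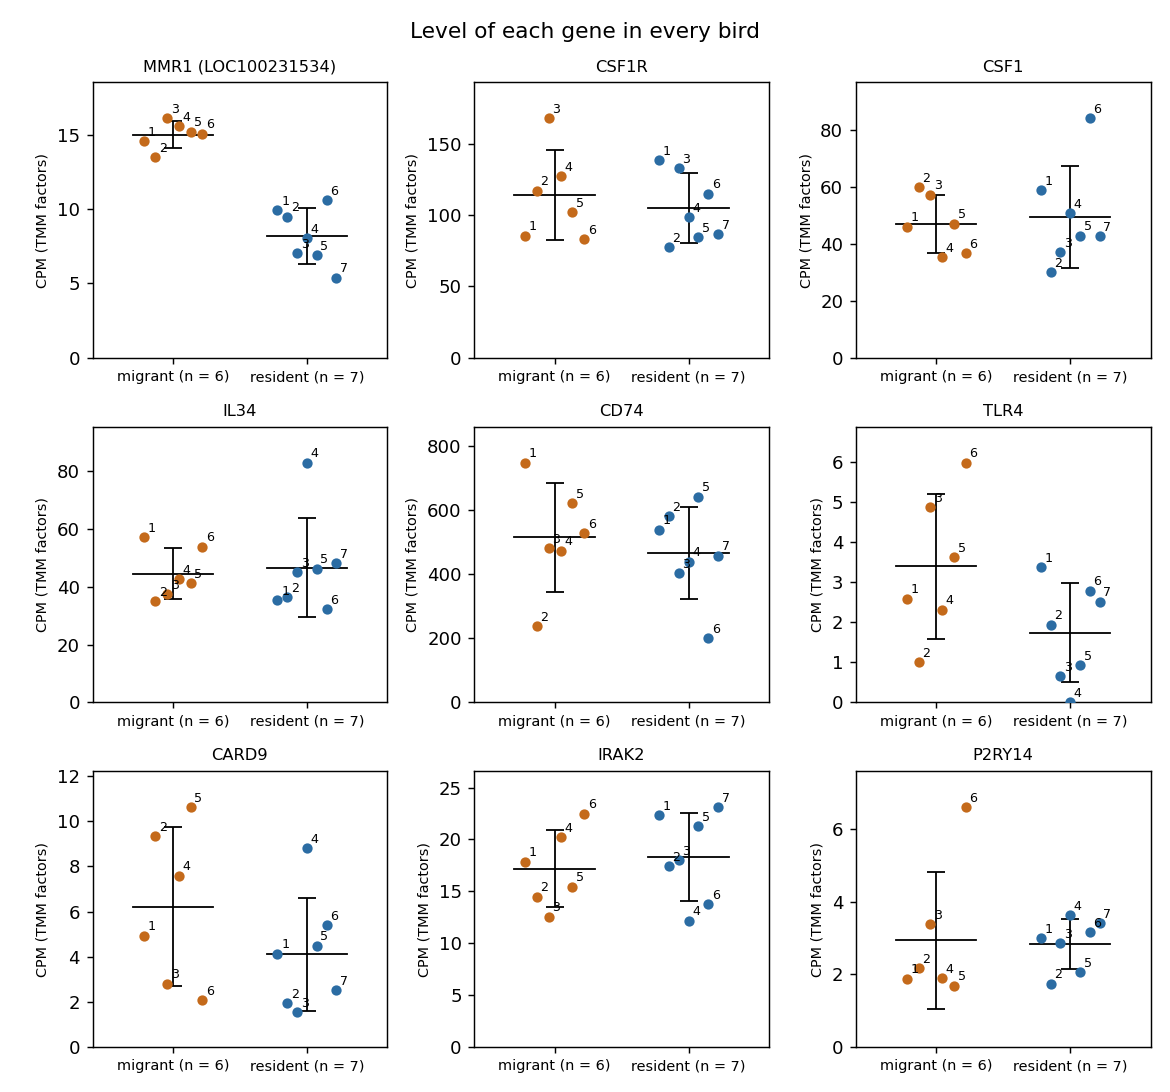
Level in CPM (vertical axis, from 0) of each of the 9 genes in every migrant (orange, n = 6) and resident (blue, n = 7), with replicate numbers beside the points; the horizontal line is the mean and the bar the SD. MMR1 is the 1 gene of the 9 whose populations do not overlap, with migrants from 13.5 to 16.1 CPM and residents from 5.37 to 10.6 CPM.

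CSF1R, the receptor on which microglia depend, did not show the separation of MMR1. Its level was 83.1 CPM in the lowest migrant, 109.5 CPM at the median and 167.8 CPM in the highest. In residents the lowest was 77.5 CPM, the median 98.7 CPM and the highest 138.6 CPM. The populations overlapped over most of their range, and the highest bird was migrant replicate 3. The log2 fold change was -0.12 (standard error 0.18, 95% interval -0.49 to 0.25). Without migrant replicate 3 the estimate was 0.03. CSF1R rested on 364 to 896 read pairs per migrant and 381 to 739 per resident, so its coefficients of variation of 27.8% and 23.2% stood far above the 4.24% and 4.39% of counting. Since all 13 samples are tissue, fewer macrophages and less transcript in each of them cannot be told apart for any of these genes. Set against CSF1R in the same bird, MMR1 overlapped between the populations. The ratio of MMR1 to CSF1R read pairs lay between 0.0960 and 0.181 in migrants, with a median of 0.136, and in residents between 0.0529 and 0.122, with a median of 0.0814.

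The ligands of CSF1R, CSF1 and IL34, were at about the same mean level in migrants and residents. Their spread was wider in residents, and for each gene 1 high resident set the upper end of the range. CSF1 lay between 35.4 and 60.0 CPM in migrants, around a median of 46.5 CPM, and in residents between 30.2 and 84.1 CPM, around 42.9 CPM. The single high resident was replicate 6, and without it the log2 fold change of 0.07 (standard error 0.20, 95% interval -0.36 to 0.50) became -0.11. IL34, which neurons make in the mammalian brain, lay between 35.0 and 57.0 CPM in migrants, around a median of 41.9 CPM, and in residents between 32.1 and 82.9 CPM, around 45 CPM. Here the high resident was replicate 4, and the highest migrant was replicate 1. These 2 libraries also stood apart from the other 11 on the first principal component of all elements, which held 24.3% of the variance. With population means removed, IL34 had r = 0.69 with that component (n = 13). This r includes the 2 libraries apart and was not computed without them, so it shows no relation among the other 11. Across all 13 birds, with population means again removed, r of IL34 with the total count was -0.62, and that of CD74 was -0.59. Resident replicate 4 had the lowest total count, 4308064, and neither r was computed without it. The part of depth in either gene was not tested. The log2 fold change of IL34 was 0.06 (standard error 0.20, 95% interval -0.35 to 0.48), and -0.05 without both libraries. The coefficients of variation in residents, 36% for CSF1 and 36.8% for IL34, compare with 6.36% and 6.70% from counting, and those in migrants were 21.6% and 20.1%. The resident values include the 1 high bird of each gene and were not computed without it. The next highest residents, at 58.9 CPM for CSF1 and 48.2 CPM for IL34, lay below the highest migrants. A wider spread of residents in general is therefore not shown. In neither population was the bird with the most CSF1 the one with the most IL34. Resident replicate 4, with the most IL34, still had 50.8 CPM of CSF1, above the resident median. Resident replicate 6 had the most CSF1 and the least IL34 of its population, and the ratio of CSF1 to IL34 read pairs ran from 0.613 to 2.62 in residents and from 0.682 to 1.71 in migrants.

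CD74, the invariant chain of the MHC class II molecules of antigen presentation, was the gene with the most read pairs of the 9. It lay between 238.1 and 746.9 CPM in migrants, around a median of 503.4 CPM, and in residents between 199.7 and 640.8 CPM, around 457.6 CPM. In each population 1 bird lay well below the rest, migrant replicate 2 and resident replicate 6, and the ranges overlapped almost wholly. The highest bird was migrant replicate 1, one of the libraries that stood apart. The log2 fold change was -0.14 (standard error 0.24, 95% interval -0.65 to 0.36), and 0.0053 without both libraries apart. At 1075 to 3433 read pairs per bird, counting accounts for a coefficient of variation of about 2.04% in migrants and 2.08% in residents, where 33.1% and 31.0% were observed.

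The pathogen-sensing genes TLR4 and CARD9 rested on few read pairs, at most 29 and 56 per bird. TLR4, the receptor for bacterial lipopolysaccharide, lay between 1.00 and 5.98 CPM in migrants, around a median of 3.10 CPM, and in residents between 0 and 3.38 CPM, around 1.93 CPM. Resident replicate 4 had 0 read pairs, which allows a level of up to 0.777 CPM (3 read pairs in that library, for counting error only). The populations overlapped, with migrants as the 3 highest birds, and 3 of the residents had 5 read pairs or fewer. The log2 fold change of -0.91 (standard error 0.51) had a 95% interval from -1.98 to 0.16, and without the 2 libraries apart it was -0.78. CARD9, an adaptor that carries signals from C-type lectin receptors in mammals, lay between 2.06 and 10.6 CPM in migrants, around a median of 6.25 CPM, and in residents between 1.54 and 8.80 CPM, around 4.13 CPM. The 2 highest birds were migrants, and the lowest was a resident. Its log2 fold change was -0.61 (standard error 0.42, 95% interval -1.49 to 0.27), and -0.94 without the 2 libraries apart, of which resident replicate 4 was the highest resident. With the blood transcript HBAA in the fit it was -0.30.

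IRAK2, a kinase-like protein downstream of toll-like and interleukin-1 receptors, lay between 12.5 and 22.5 CPM in migrants, around a median of 16.6 CPM, and in residents between 12.2 and 23.1 CPM, around 18.0 CPM. The ranges were nearly the same, and the log2 fold change was 0.10 (standard error 0.19, 95% interval -0.29 to 0.49). P2RY14, a receptor for UDP-sugars that are released from damaged cells, lay between 1.69 and 6.60 CPM in migrants, around a median of 2.03 CPM, and in residents between 1.74 and 3.63 CPM, around 3.0 CPM. All but 1 migrant lay within or just below the residents, and migrant replicate 6 stood far above both. The log2 fold change of -0.06 (standard error 0.35, 95% interval -0.80 to 0.68) became 0.34 without that bird. In residents the coefficient of variation of P2RY14 was 24.5%, no more than the 26.8% of counting. Of the 18 sets formed by 9 genes and 2 populations, 16 had a larger spread than counting gives, the exceptions being MMR1 in migrants and P2RY14 in residents.

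**Figure D2:**
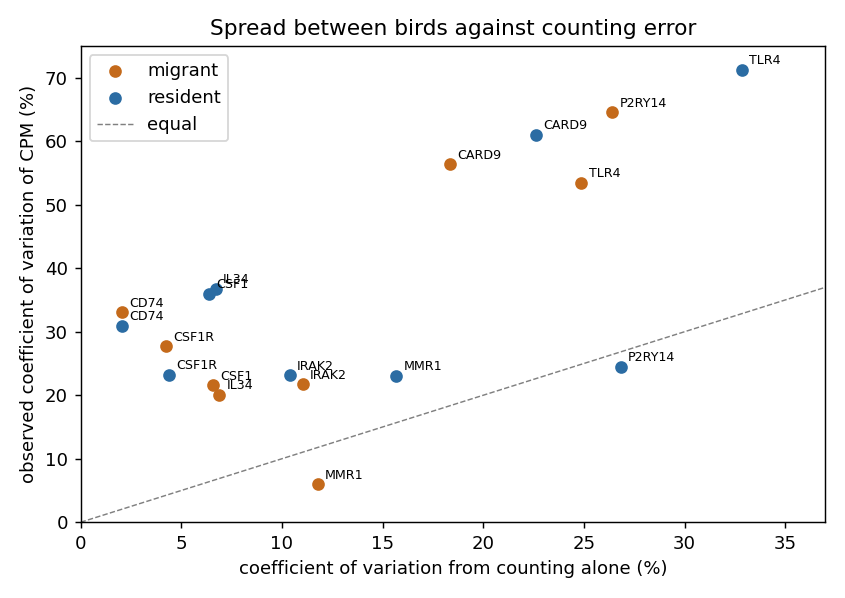
Observed coefficient of variation of CPM between birds (vertical axis, %) against the value that counting alone gives (horizontal axis, %) for each gene in migrants (orange) and residents (blue), with a dashed line where they are equal. MMR1 in migrants (6.01% against 11.8%) and P2RY14 in residents (24.5% against 26.8%) are the 2 points under the line, and CD74 and CSF1R lie farthest to the left.

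By edgeR's quasi-likelihood test over all 9938 elements, with Benjamini-Hochberg adjustment, 0 of the 9 genes passed an adjusted p of 0.05, where 0.0% of all elements were called and 442 had an unadjusted p under 0.05. The adjusted p of the 8 genes other than MMR1 was at least 0.996, and none of the 8 had an unadjusted p under 0.05, against 4.45% of all elements. DESeq2 called 0.0302% of elements, and MMR1 was the 1 of the 9 among them, which adds nothing to the choice of MMR1 from this contrast. By limma-voom 0 elements were called and 446 had an unadjusted p under 0.05. By estimate 6 of the 9 genes were lower in residents (MMR1, CSF1R, CD74, TLR4, CARD9 and P2RY14) and 3 were higher. Without MMR1, which this contrast had chosen, 5 of the 8 others were lower. Of these, CSF1R, CD74 and P2RY14 turned direction under some alternatives, and the share of all elements that were lower was not counted. The median log2 fold change of the 8 other genes was -0.09, beside 0.0021 over all elements. Their intervals include 0 but leave room for differences, so they do not show that the populations are alike. Those of TLR4 (-1.98 to 0.16) and CARD9 (-1.49 to 0.27) reach far below 0 and little above it.

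**Figure D3:**
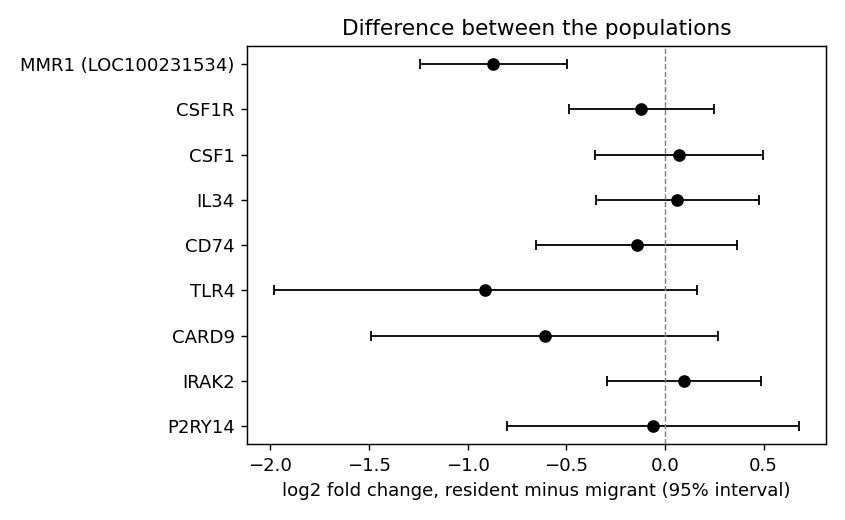
Log2 fold change of residents over migrants (horizontal axis) for each gene (vertical axis), with 95% intervals from edgeR's quasi-likelihood fit and a dashed line at 0. The interval of MMR1 (-1.24 to -0.50) lies below 0, and the 8 other intervals include 0.

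Covariation from bird to bird asks whether the genes rose and fell in the same birds. In neither population was the bird with the most CSF1R the one with the most CD74. With population means removed, log2(CPM + 1) of CSF1R and CD74 had r = -0.39 across the 13 birds. The permutation p was 0.212 and the adjusted p 0.602, so no relation is shown. Within migrants r was -0.39 and within residents -0.39, with exact permutation p-values of 0.447 and 0.429. Of the 36 pairs of genes, 19 had a positive and 17 a negative r with means removed. By permutation within populations 0 of the 36 passed after adjustment, and 1 had an unadjusted p under 0.05. Within the populations taken one at a time, 0 of 72 relations passed after adjustment by exact permutation of pairings, either by Pearson's r or by Spearman's rho, and 3 had an unadjusted p under 0.05 by each measure. No single relation among migrants could have passed on its own. With 6 birds the smallest exact permutation p is 0.00139 for r and 0.00278 for rho, which adjusted for a lone relation among 72 is 0.1 and 0.2. With the 7 residents a lone perfect relation would have reached an adjusted exact permutation p of 0.0143 for r and 0.0286 for rho. The sign of r was the same in migrants and residents for 19 of the 36 pairs and opposite for 17. The counts therefore do not show that the genes vary independently.

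**Figure D4:**
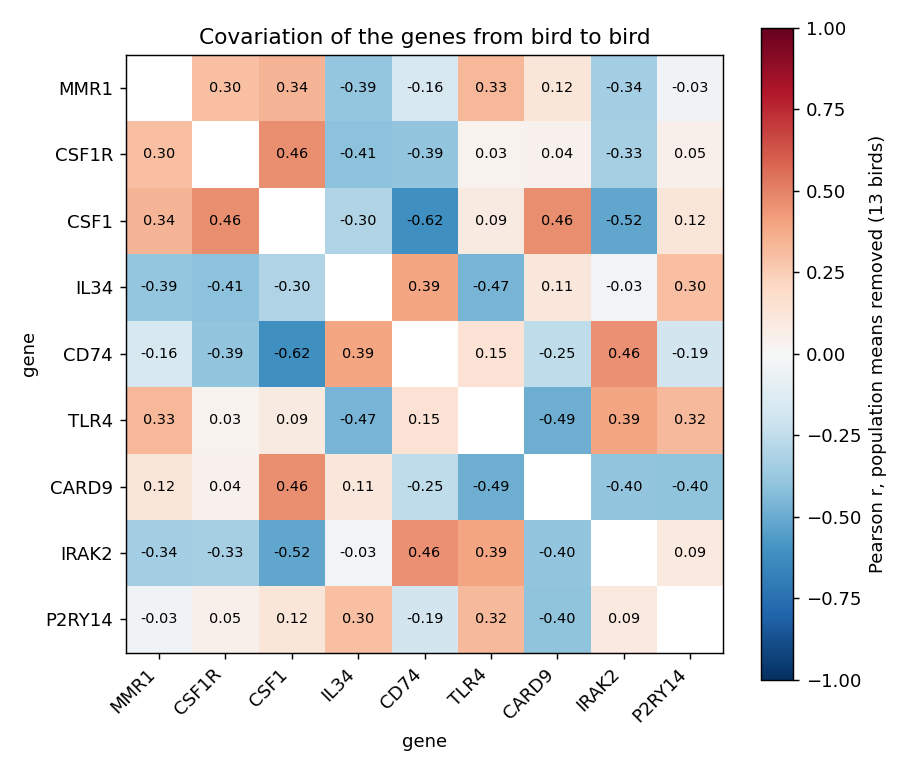
Pearson r of log2(CPM + 1) for each pair of the 9 genes (both axes) across 13 birds after removal of population means; red is positive, blue negative, and the scale runs from -1 to 1. The most negative pair is CSF1 and CD74 (r = -0.62) and the genes form no common block, with 19 positive and 17 negative pairs.

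MMR1 followed none of the other genes beyond the adjusted threshold. Among migrants its level varied no more than counting gives, so its values of r there rest on counting noise and nothing is read from them. In residents the coefficient of variation of MMR1 was 23.1%, against 15.7% from counting, so counting noise enters its r there too. In migrants it was 6.01%, so r of MMR1 with population means removed rests mostly on the residents. With CSF1R, MMR1 had r = 0.43 (rho = 0.60) in migrants. The exact permutation p was 0.407 for r and 0.242 for rho. In residents r was 0.34 (rho = 0.39), with an exact permutation p of 0.454 and 0.396. With the 2 birds farthest from the median of MMR1 left out, very few birds remained, and r was 0.84 in migrants and 0.07 in residents. With TLR4 r was 0.73 (rho = 0.43) in migrants and 0.29 (rho = 0.46) in residents, with exact permutation p-values of 0.0917 and 0.521 for r and of 0.419 and 0.302 for rho, and without the 2 farthest birds r was -0.08 and 0.68. By rank the strongest partner was IL34 in residents, with rho = -0.79 and r = -0.47, exact permutation p-values of 0.0480 and 0.299, and an r of -0.42 without the 2 farthest birds. This pair turned on resident replicate 4, one of the libraries that stood apart. Without it the 6 other residents had r = -0.97 and rho = -1.0, with exact permutation p-values of 0.00972 and 0.00278 and adjusted p-values of 0.7 and 0.2, the rank value being the smallest that 6 birds can give. In migrants the same pair had rho = -0.09 and r = 0.05, with exact permutation p-values of 0.919 and 0.929, and -0.84 without the 2 farthest birds. With all birds kept, the exact permutation p-values for these 3 partners were at least 0.81 after adjustment over the 72 relations. With population means removed, r of MMR1 was 0.30 with CSF1R, 0.34 with CSF1, 0.33 with TLR4 and 0.12 with CARD9, and -0.39 with IL34, -0.34 with IRAK2, -0.16 with CD74 and -0.03 with P2RY14. Single birds moved most of these values. With CSF1 r was 0.02 without resident replicate 6 and 0.60 without resident replicate 2, and with CSF1R it lay between 0.17 without resident replicate 1 and 0.46 without resident replicate 2. With TLR4 it was 0.22 without resident replicate 1 and 0.71 without resident replicate 7, the latter with a permutation p of 0.0245 and an adjusted p of 0.682. With IL34 it was -0.24 without resident replicate 6, -0.60 without resident replicate 4 and -0.67 without migrant replicate 1 as well. With IRAK2 it was -0.52 without resident replicate 1 and -0.13 without resident replicate 7, and with CARD9 0.00083 without resident replicate 7 and 0.23 without resident replicate 2. Over all 13 birds, 15.2% of all elements were at least as positively related to it as CSF1R was, and 7.95% at least as negatively as IL34.

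The receptor and its ligands likewise showed no relation past the adjusted threshold. With population means removed, r was 0.46 for CSF1R with CSF1, -0.41 for CSF1R with IL34 and -0.30 for CSF1 with IL34. The last was -0.06 without resident replicate 6 and -0.64 without both libraries that stood apart. Within migrants CSF1R and IL34 had r = -0.79 and rho = -0.66, with exact permutation p-values of 0.0653 and 0.175 and r = -0.77 without the 2 farthest birds, and within residents r = -0.21 and rho = -0.36, with exact permutation p-values of 0.693 and 0.444. CSF1 and IL34 had r = -0.63 and rho = -0.77 in migrants, with exact permutation p-values of 0.188 and 0.103, and r = -0.19 and rho = -0.32 in residents, with exact permutation p-values of 0.663 and 0.498. Among these values the adjusted exact permutation p was at least 0.81, and the differences between the populations were not tested. With population means removed, CSF1 and CD74 had the r of largest size of all pairs, at -0.62, with a permutation p of 0.0347 and an adjusted p of 0.602. Their rank correlation was -0.32. The value of r rested on resident replicate 6, which had the most CSF1 and the least CD74 of the residents. It was -0.31 without that bird (permutation p = 0.354). By rank, also with means removed, the strongest pairs were MMR1 with IL34 (-0.64), CSF1R with CD74 (-0.62) and MMR1 with TLR4 (0.58). TLR4 and CARD9, both scarce, had r = -0.49. Of the 3 relations with an unadjusted p of r under 0.05 within a population, 1 was CSF1 and IRAK2 in migrants. There r was -0.92 and rho -0.89, with exact permutation p-values of 0.0181 and 0.0333. Without the 2 farthest birds very few birds remained, and r was -0.98. IL34 and TLR4 in residents had r = -0.85 and rho = -0.71, with exact permutation p-values of 0.0153 and 0.0881, and r fell to -0.54 without the 2 farthest birds. Resident replicate 4 had the most IL34 of the residents and 0 read pairs of TLR4. Without that bird the residents had r = -0.61 and rho = -0.54, with exact permutation p-values of 0.225 and 0.297. CARD9 and P2RY14 in migrants had r = -0.86 and rho = -0.77, with exact permutation p-values of 0.0167 and 0.103, and r was -0.06 without the 2 farthest birds, so this relation rested on them. Each of the 3 had an adjusted p of 0.433 for r and 0.914 for rho by exact permutation. None of the 3 had an unadjusted p under 0.05 in the other population. CSF1 and IRAK2 had r = -0.33 in residents (exact permutation p = 0.478). The sign of r turned for IL34 and TLR4, at 0.41 in migrants (exact permutation p = 0.421). It also turned for CARD9 and P2RY14, at 0.44 in residents (exact permutation p = 0.315). CSF1 and CARD9 in residents were related more by rank, with rho = 0.79 and r = 0.66. The exact permutation p-values were 0.0480 and 0.105, and 0.914 and 0.81 after adjustment. Without the 2 farthest birds r was 0.65. In migrants rho was 0.31 and r 0.19, with exact permutation p-values of 0.564 and 0.697.

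**Figure D5:**
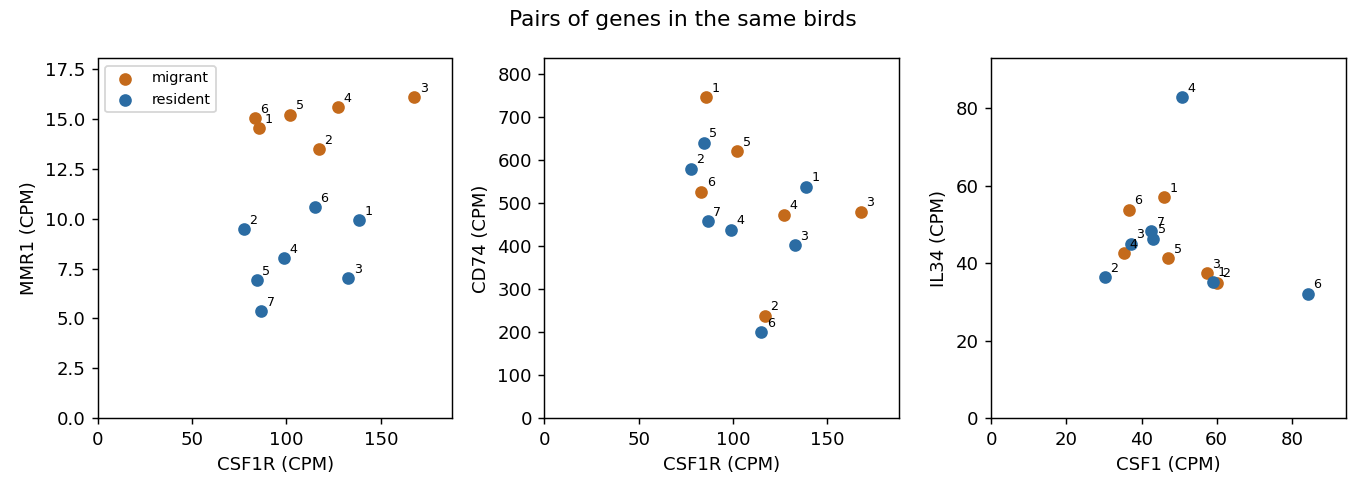
Levels in CPM of MMR1 against CSF1R (left), CD74 against CSF1R (middle) and IL34 against CSF1 (right) in migrants (orange) and residents (blue), with replicate numbers beside the points and all axes from 0. Every migrant lies above every resident in MMR1, the difference by which MMR1 was chosen. The ratio of MMR1 to CSF1R overlaps between the populations. Resident replicate 6 and migrant replicate 2 are lowest in CD74.

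The named elements most like these genes were found among 857 elements with a symbol, a mean of at least 5 CPM and a place in the part of the gene list that is ordered by identifier. Likeness was r of log2(CPM + 1) with population means removed over the 13 birds, and it is given as a description with no test. MMR1 was most like RMND5A, a subunit of a ubiquitin ligase (r = 0.76), TPPP3 (0.71), CMTR2, an enzyme of the mRNA cap (0.69), HSD3B1, an enzyme of steroid synthesis (0.69), and PNPLA4 (0.67). For RMND5A r was 0.56 in migrants and 0.90 in residents, and for CMTR2 0.70 and 0.72. In migrants r was low for the other 3, at -0.13 for TPPP3, 0.09 for HSD3B1 and 0.14 for PNPLA4, against 0.94, 0.76 and 0.88 in residents. The migrant values of r for MMR1 rest on counting noise, so nothing is read from them or from their contrast with residents. These genes were also picked as the highest of 857 in r over all 13 birds. That r rests mostly on the residents, among whom MMR1 varied more. CSF1R was most like SLC9A5, a sodium and hydrogen exchanger (0.78), the cyclin CCND1 (0.78), EDEM1, which directs misfolded proteins to degradation (0.69), SOCS7 (0.69) and the phosphatase PTPN1 (0.61). For CCND1 r was 0.77 in migrants and 0.82 in residents. CD74 was most like LOC100220709, annotated as a serine/arginine-related protein (0.80), LAMTOR3 (0.69), the creatine kinase CKB (0.68), KLHDC8B (0.68) and LOC100190105 (0.65).

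The pathways around the 9 genes were read from lists of 42 other genes, of which 38 were abundant enough to test. None of the 38 passed the adjusted threshold of edgeR's quasi-likelihood test in either direction, and 2 had an unadjusted p under 0.05, both of them haemoglobins. Over all elements these shares were 0.0% and 4.45%. The lists were drawn from the rows of the gene table ordered by identifier, which leaves out the rows ordered by adjusted p. That choice removed the genes the study ranked first, so the lack of calls in the lists carries no weight. For the same reason the shares over all elements, which keep those genes, are not a like comparison. Of 6 tested genes of the phagolysosome and antigen presentation, 5 were higher by estimate, with a median log2 fold change of 0.19, and the iron store FTH1 had -0.03. Of 6 genes downstream of toll-like and interleukin-1 receptors, 2 were higher and 4 lower, with a median of -0.0067, and SOD2, a mitochondrial enzyme induced by this signalling, had -0.12 (standard error 0.19). Both tested chemokines were lower by estimate, and CXCL14 had -0.0044 (standard error 0.15).

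Markers of the other cells that the tissue can hold were read in the same way. All 3 tested blood genes were lower in residents by estimate, with a median log2 fold change of -0.59. Their summed level ran from 4782 to 12703 CPM in migrants and from 3497 to 10385 CPM in residents, with none at 0 in all birds. HBAA had an unadjusted p of 0.0376 and HBAD of 0.0388 from edgeR's quasi-likelihood test, and neither passed the adjusted threshold. HBAA and MMR1 had r = 0.40 across the 13 birds with population means removed. With HBAA in the fit, a choice made after seeing the data, the log2 fold change of MMR1 was -0.76 in place of -0.87. Of 7 endothelial genes 4 were higher and 3 lower, with 0.02 (standard error 0.12) for the receptor S1PR1, with summed levels from 514.8 to 752.8 CPM in migrants and from 577.7 to 819.3 CPM in residents. All 5 fibroblast and meningeal genes were lower in residents by estimate, with a median of -0.06, which was that of FSTL1, and ran from 112.6 to 151.8 CPM against 93.5 to 138.7 CPM. The part of meningeal tissue in the difference of MMR1 was not tested. The 2 tested lymphocyte genes were scarce, at a summed 3.37 to 6.93 CPM in migrants and 2.71 to 12.7 CPM in residents, and went in opposite directions, with a log2 fold change of 0.43 (standard error 0.37) for IL2RG. Of 4 neuron genes 3 were higher by estimate, and the most abundant of the 4, UCHL1, was the lower one, at -0.12 (standard error 0.19).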

How the data were processed

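RNA-seq counts of 13 hypothalami, 6 migrant and 7 resident, were used. Each deposited file holds raw counts, the number of read pairs on each element. The authors trimmed reads with Trimmomatic 0.33, mapped them with STAR 2.5.3a to the junco draft genome and counted unique pairs with featureCounts. The submitters' processing notes also name GSNAP and Subread 2.0.0. Reads that related lectin genes share may have gone uncounted, so the level of MMR1 is uncertain, and the strand setting was not given in the sources used here. Symbols came from the copy of the study's gene table used here, which held 1223 rows. The first 175 of them are ordered by adjusted p, and the lists other than the 9 genes use only the later ones.

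Elements reaching 5 counts in 6 or more libraries were tested with edgeR 4.0.16 (TMM factors, quasi-likelihood test) in R 4.3.3 across all genes, with Benjamini-Hochberg adjustment. DESeq2 1.42.0 and limma-voom (limma 3.58.1) were alternatives, as were other factors and filters, covariates and leaving out birds. The steps were tested on simulated data. A standard error is the absolute log2 fold change divided by the root of its F statistic. Covariation used log2(CPM + 1), with all 720 pairings of 6 birds and all 5040 of 7, or 100000 permutations within populations, two-sided. The counting value of a coefficient of variation is the Poisson one. The members and lists were chosen with earlier results of these data known. Named list genes are the most abundant of each list and those with an unadjusted p under 0.05. The result of 1 list is not reported here. Each library is 1 bird, and no libraries of a population agreed within sampling noise (smallest chi-square per gene 7.23). No genome was used, so no coordinates or sequences are given.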

Additional observations from a re-analysis of the deposited data

Results flagged for a closer look

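Of the 18 sets of values formed by 9 genes and 2 populations, 2 held a bird far from the others, where chance gives about 1 in 20. IL34 was highest in resident replicate 4, at 82.9 CPM, with a gap to the next resident that was 0.684 of the whole range. The same library stood apart on the first principal component and had 0 read pairs of TLR4. P2RY14 was highest in migrant replicate 6, at 6.60 CPM from 32 read pairs, with a gap of 0.658 of the range. That bird also had the most TLR4 and IRAK2 of the migrants and the least CSF1R and CARD9.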

How the results depend on the processing

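Over 23 alternatives MMR1 stayed lower in residents, and its log2 fold change lay between -0.94 and -0.76. This contrast had chosen MMR1 in these birds, and its populations did not overlap, so this steadiness is no support. The DESeq2 adjusted p below likewise adds nothing to that choice. DESeq2 called 2 elements higher and 1 lower in residents, and the 1 lower was MMR1 (adjusted p = 0.0096, and from 0.0096 to 0.9996 over the alternatives), the 1 of the 9 genes called. The other 22 alternatives called none of the 9. Of 207 log2 fold changes of the 9 genes under the alternatives, 12 turned direction, all of them for genes with estimates near 0. IL34 was -0.17 with library number as a covariate and -0.052 without migrant replicate 1 and resident replicate 4 together, where CD74 was 0.0053. P2RY14 was 0.060 by limma-voom, and IRAK2 was -0.011 with HBAA as a covariate, an alternative added after seeing the data. Without turning, CSF1 moved to 0.35 and P2RY14 to -0.34 with library number, and IL34 to 0.26 with HBAA. Library number ran from 1 to 9 in migrants and from 4 to 14 in residents, so it is partly confounded with population. The 2 libraries apart hold its ends, 1 for migrant replicate 1 and 14 for resident replicate 4. Leaving out 1 bird at a time gave -0.20 to 0.028 for CSF1R, -0.11 to 0.16 for CSF1, -0.14 to 0.15 for IL34 and -0.17 to 0.34 for P2RY14. The estimate turned without migrant replicate 3 for CSF1R, migrant replicate 4 or resident replicate 6 for CSF1, resident replicate 4 for IL34, and migrant replicate 6 or resident replicate 2 or 5 for P2RY14. The causes were not tested. Of 238 values of r with population means removed, from 14 of the 36 pairs, 4 turned sign. MMR1 with P2RY14 was 0.015 on linear CPM and -0.10 to 0.12 without 1 bird, above 0 without resident replicate 2 or 7, and MMR1 with CD74 was -0.36 to 0.27 without 1 bird, the last without resident replicate 6. No alternative called any of the 14 pairs followed. Turns among the other pairs were not counted, and some were large. Without both libraries apart, r went from -0.03 to 0.74 for IL34 with IRAK2, and from 0.11 to -0.48 for IL34 with CARD9. For IL34 with TLR4 it went from -0.47 to 0.03. Replicate numbers did not pair the birds (r of deviations from -0.18 to 0.06), and a block on them, which leaves out resident replicate 7, gave -0.80 for MMR1 and 0 calls. Depth limits TLR4 and P2RY14, at means of 9.29 to 16.3 read pairs per bird.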
